A study of Mus musculus with 6 samples.

Results

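The genes described here are 10 textbook transcriptional targets of p53: Cdkn1a, Mdm2, Ccng1, Bax, Gdf15, Phlda3, Eda2r, Btg2, Trp53inp1 and Bbc3. They were taken by name, as the rows of the liver tables that carry these gene symbols. The list was chosen with earlier results of these data known, so the counts called below describe these genes only. All 10 were found among the 18444 genes listed in at least 1 library. Each had reads in all 6 libraries, so no member was lost to a filter on low values.

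The liver RNA came from male mice, labelled C57BL/6 (C57BL/6J in the methods). They belonged to a diet model and a carbon tetrachloride (CCl4) model of liver injury. The labels give an age of 6-8 weeks, which the methods state for the mice used in the models. After 16 weeks of diet the mice of that model were older, and no age at collection is stated. In the diet model, SD mice (labelled as a chow diet control) were compared with mice on a high fat diet (HFD) for 16 weeks and with HFD mice that also received JT003 for 4 weeks. The HFD library is labelled as NASH, the inflamed stage of fatty liver, whereas the methods describe HFD alone as a fatty liver model and add a methionine and choline deficient diet for NASH, so which applies to this library is not settled. In the CCl4 model, corn oil mice were compared with mice given CCl4 (20% in corn oil, 5 ml/kg, every 3 days for 6 weeks), a toxin that hepatocytes activate and that causes repeated death and scarring, and with CCl4 mice that also received JT003 for 3 weeks. JT003 is a peptide derived from adiponectin that activates the receptors AdipoR1 and AdipoR2, and it was injected daily at 500 μg/kg. No transgene or deletion is named for any group. The methods give groups of 6 mice, but each condition has 1 library, and how many mice contributed to each is not stated.

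The p53 protein is a transcription factor that is kept low by Mdm2, a ubiquitin ligase that p53 itself switches on. Damage to DNA and several other stresses release p53 from this loop, and it then raises genes that hold the cell cycle, genes that favour cell death and genes that act back on the pathway. In the liver these genes are known to respond to toxic injury and to fat loading, but several of them, among them Cdkn1a and Gdf15, also respond to other stress and nutrient signals, so their RNA is not a measure of p53 activity by itself.

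As an orientation to how these genes are wired, RefSeq promoter windows (assembly GRCm38.p6, from 250 bases before to 50 bases after a transcript start) were searched for the p53 half-site consensus, a sequence of 10 letters that reads the same on both strands. Of all 32851 windows, 8.36% held a half-site without mismatch, and 0.798% held a pair of adjoining half-sites with at most 2 mismatches. The members had 13 windows for 9 genes. Among these, 4 windows held a half-site, and those of Cdkn1a and Ccng1 held an adjoining pair, each with 1 mismatch. Below are both pairs, and the single half-sites of Mdm2 and Bax, with all letters of each site in capitals, the mismatched letter of each pair included. A further half-site of Cdkn1a without mismatch, which starts 73 bases before its upstream start, is not marked. The coordinates given are those of each whole printed stretch, with the flanking bases in small letters. In Cdkn1a the pair starts 51 bases before the upstream of 2 RefSeq starts (chr17:29090908-29090967, plus strand) and 2841 bases before the downstream one. In Ccng1 it starts 195 bases before the transcript start (chr11:40755442-40755501, minus strand). The half-sites start 186 bases before the start in Mdm2 (chr10:117710915-117710964, minus strand) and 201 bases before it in Bax (chr7:45467070-45467119, minus strand).
Cdkn1a: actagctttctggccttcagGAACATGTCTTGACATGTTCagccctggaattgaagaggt
Ccng1: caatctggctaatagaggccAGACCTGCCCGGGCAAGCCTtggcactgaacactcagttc
Mdm2: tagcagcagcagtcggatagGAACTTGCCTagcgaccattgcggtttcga
Bax: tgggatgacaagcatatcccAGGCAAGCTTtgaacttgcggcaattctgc
These are matches of letters and not measured binding. The best known p53 element of Mdm2 lies in its first intron, which this window does not cover, and the windows of Gdf15, Phlda3, Eda2r, Btg2 and Bbc3 held no half-site.

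Rounded expected counts (the authors' estimate of the reads of each gene, in which a read shared by several genes is split) summed to 19374236 to 20184557 per library. Levels are given below as the deposited FPKM, fragments scaled by transcript length and library depth, which can be set side by side between genes. Differences are log2 ratios of the counts after scaling for library size, each with a 95% interval. These intervals cover counting error only. With 1 library per condition, every test compares a pair of libraries and not the conditions, and no spread between mice could be estimated. A gene was called higher or lower at an adjusted p under 0.001 in an exact binomial test and a log2 ratio of at least 1 in either direction. As a check of the labelled tissue, 10 hepatocyte genes were above 0 in every library, with a summed level of 47800 to 58900 FPKM.

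Cdkn1a, which encodes the cell cycle inhibitor p21, was called in all 4 comparisons of a model or of JT003, and in HFD it moved in the opposite direction to the 5 members called higher there. Its level was 21.41 FPKM in SD, 7.80 in HFD and 2.47 when JT003 was added. In the CCl4 model it was 28.15 in corn oil, 83.05 in CCl4 and 21.07 when JT003 was added. The lowest library was thus HFD plus JT003 and the highest CCl4, 33.6 times apart. Between SD and HFD Cdkn1a fell by 1.57 on the log2 scale (interval -1.78 to -1.39), from 828 to 295 reads. It fell by a further 1.65 (-2.02 to -1.33) between HFD and HFD plus JT003, to 94 reads. Set against SD, the HFD plus JT003 library was lower at -3.22 (-3.58 to -2.94). In the other model it rose in CCl4 by 1.32 (1.22 to 1.42), from 1050 to 3208 reads, and fell by 2.04 (-2.16 to -1.93) between CCl4 and CCl4 plus JT003, to 783 reads. The JT003 library then lay -0.72 (-0.86 to -0.59) from corn oil, which is short of the threshold for a call. The reads are counted per gene, so the 2 RefSeq starts cannot be told apart, and in whole liver fewer cells with a transcript and less of it per cell cannot be told apart either.

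Btg2 and Ccng1 are the other members tied to the cell cycle. Btg2, an antiproliferative gene that also responds quickly to growth signals, was at 6.90 FPKM in SD, 7.15 in HFD, 4.18 in HFD plus JT003, 6.28 in corn oil, 10.67 with CCl4 and 11.65 in CCl4 plus JT003. None of its ratios within a model was past the threshold between these libraries. Ccng1, which encodes the atypical cyclin G1, was at 6.01 FPKM in SD, 13.60 in HFD, 10.47 in HFD plus JT003, 5.77 in corn oil, 10.91 with CCl4 and 11.60 in CCl4 plus JT003. Both control libraries were the lowest for Ccng1, and it rose in HFD by 1.05 (0.89 to 1.22), from 429 to 950 reads. Its ratio in CCl4 over corn oil was 0.68 (0.51 to 0.86), below the threshold on size.

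Among the members that act back on the pathway, Mdm2 varied least of all 10. Its levels were 9.89 FPKM in SD, 10.59 in HFD, 10.90 in HFD plus JT003, 8.60 in corn oil, 11.86 with CCl4 and 15.57 in CCl4 plus JT003, so that the highest library was 1.81 times the lowest. Its log2 ratio was -0.03 in HFD over SD (0.10 when scaled by total reads) and 0.23 in CCl4 over corn oil. Phlda3, which restrains Akt signalling, was at 0.47 FPKM in SD, 1.61 in HFD, 0.75 in HFD plus JT003, 0.87 in corn oil, 7.52 with CCl4 and 4.19 in CCl4 plus JT003. It rose in HFD by 1.53 (0.77 to 2.63) on 14 and 47 reads, and in CCl4 by 2.79 (2.28 to 3.53) on 25 and 224 reads. In CCl4 plus JT003 over CCl4 it stood at -0.90 (-1.24 to -0.58), under the threshold on size. Trp53inp1, whose product promotes p53 phosphorylation and takes part in autophagy, was at 7.74 FPKM in SD, 18.95 in HFD, 15.23 in HFD plus JT003, 7.68 in corn oil, 12.85 with CCl4 and 16.44 in CCl4 plus JT003. It rose in HFD by 1.16 (1.05 to 1.28), from 860 to 2057 reads, and its ratio in CCl4 over corn oil was 0.50 (0.38 to 0.63).

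The members tied to cell death did not share a pattern. Bax, which opens the outer mitochondrial membrane, was at 15.27 FPKM in SD, 20.2 in HFD, 16.89 in HFD plus JT003, 21.39 in corn oil, 49.90 with CCl4 and 53.74 in CCl4 plus JT003. Both libraries with CCl4 were above all others. The ratio of CCl4 over corn oil was 0.98 (0.80 to 1.17), just inside the threshold, and that of CCl4 plus JT003 over corn oil was 1.02 (0.84 to 1.21), just past it. Their intervals overlap almost fully, and the pair shares the corn oil library.

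Bbc3, which encodes the BH3-only protein PUMA, was at 1.33 FPKM in SD, 0.90 in HFD, 2.34 in HFD plus JT003, 3.55 in corn oil, 3.83 with CCl4 and 3.20 in CCl4 plus JT003. It is the 1 member called higher with JT003 on HFD, at 1.32 (0.80 to 1.98) on 35 and 92 reads, where Cdkn1a and Eda2r fell. In CCl4 over corn oil its ratio was -0.13 (-0.47 to 0.21), with the opposite sign, 0.10, when scaled by total reads.

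Eda2r, a death domain receptor of the tumour necrosis factor receptor family, had the lowest levels of the 10. Its highest library was 40.0 times its lowest in FPKM, a value that rests on the 3 reads of corn oil. It was at 0.07 FPKM in SD, 0.74 in HFD, 0.20 in HFD plus JT003, 0.03 in corn oil, 1.2 with CCl4 and 1.12 in CCl4 plus JT003. The reads behind these values were 7, 59, 18, 3, 98 and 95. It rose in HFD by 2.68 (1.85 to 4.36) and in CCl4 by 4.10 (3.15 to 7.04), a ratio that rests on the 3 reads of the corn oil library. Eda2r fell by 1.63 (-2.58 to -0.95) with JT003 on HFD, while CCl4 plus JT003 over CCl4 gave -0.05 (-0.48 to 0.37; 0.01 when scaled by total reads).

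Gdf15, a secreted stress hormone of the TGF-β superfamily that lowers appetite through the brainstem, was at 5.33 FPKM in SD, 15.34 in HFD, 8.72 in HFD plus JT003, 5.52 in corn oil, 30.66 with CCl4 and 24.44 in CCl4 plus JT003. Both control libraries were the lowest. Gdf15 rose in HFD by 1.39 (1.09 to 1.72) and in CCl4 by 2.22 (1.95 to 2.53). With JT003 its ratios were -0.82 (-1.10 to -0.57) on HFD and -0.39 (-0.56 to -0.22) on CCl4, both short of a call.

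**Figure D1:**
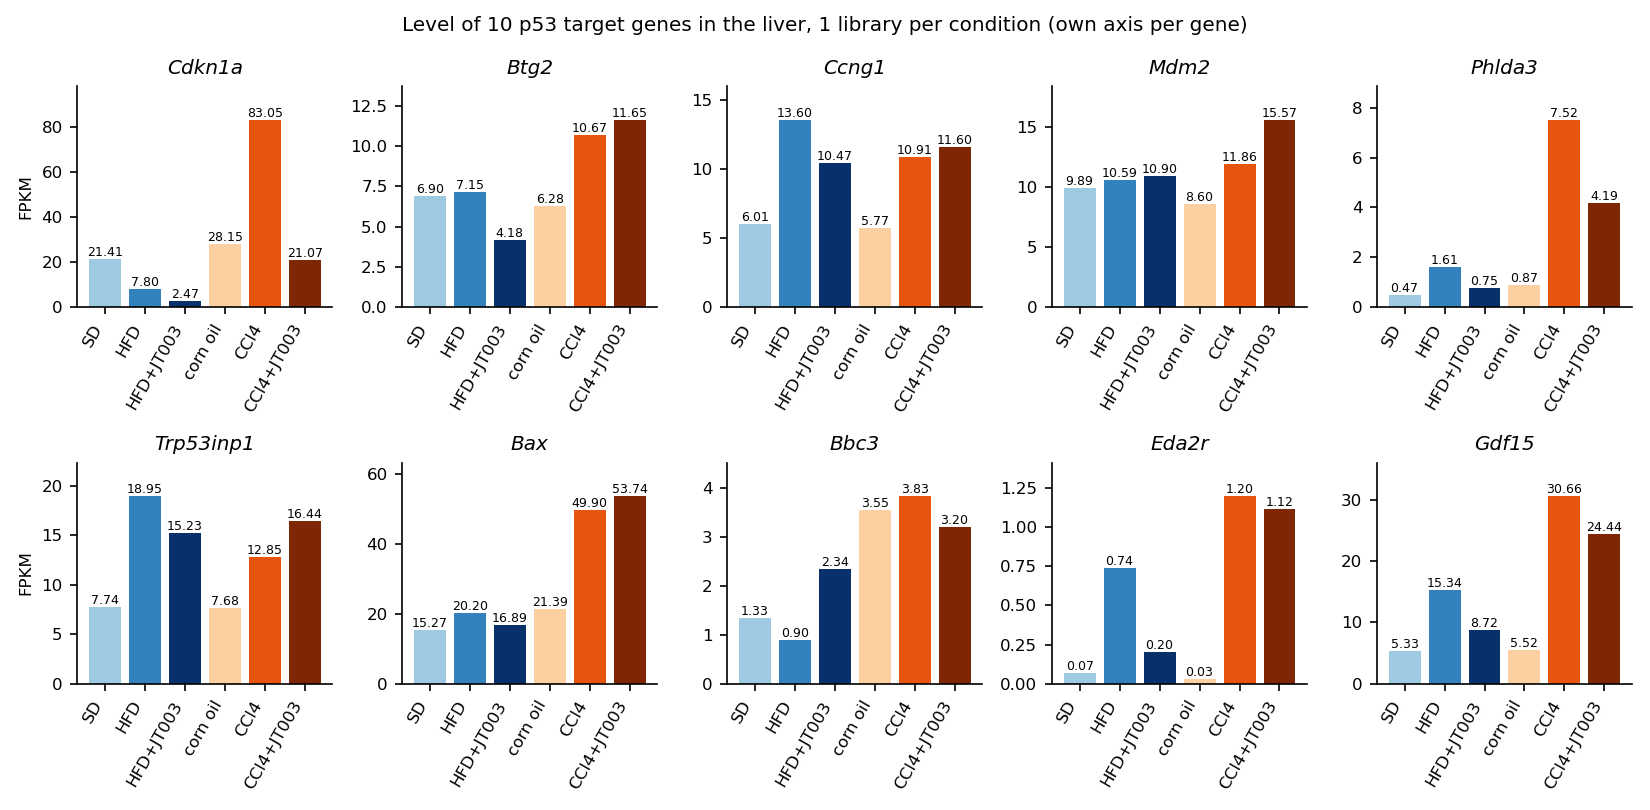
Level of each of the 10 genes in FPKM (vertical axis, from 0, own scale for each gene) in the 6 liver libraries, 1 bar for each library and no error bar because there is 1 library for each condition. Cdkn1a falls from 21.41 to 2.47 FPKM across the diet libraries while Ccng1, Phlda3, Trp53inp1, Eda2r and Gdf15 are all higher in HFD than in SD, and Mdm2 stays between 8.60 and 15.57.

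Which of these genes differed between HFD and SD was asked first. Of the 10 members, 5 were called higher (Ccng1, Gdf15, Phlda3, Eda2r and Trp53inp1) and 1 lower (Cdkn1a), whereas 2.92% of all 16973 genes tested were called higher and 2.46% lower. The adjusted p of the exact binomial test ranged from 1.81e-94 for Trp53inp1 to 3.55e-04 for Phlda3 among those called higher. The median log2 ratio of the 10 was 0.67 (all genes tested, 0.00). Btg2 stood at -0.07 (0.05 when scaled by total reads), Bax at 0.28 and Bbc3 at -0.66, and like Mdm2 they were not called. When the exact test of edgeR was run with an assumed coefficient of variation of 0.2 between mice, Eda2r was the 1 member still called, where 1.05% of all genes were.

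JT003 on HFD was then compared with HFD alone, a comparison that shares the HFD library with the one above. Here 2 members were called lower, Cdkn1a and Eda2r, and 1 higher, Bbc3, against 0.884% and 0.743% of all genes. For Cdkn1a the adjusted p of the exact binomial test was 1.90e-24, for Eda2r 2.14e-05 and for Bbc3 7.14e-06. Phlda3 had a ratio of -1.05 (-1.92 to -0.36) that missed the call with an adjusted p of 0.0146 in the same exact test. The median of the 10 was -0.59 (all genes, -0.01). With an assumed coefficient of variation of 0.2 no member was called, where 0.111% of all genes were. Set directly against SD, the HFD plus JT003 library differed in 1 member, Cdkn1a, which was lower, as were 2.76% of all genes. No member was called higher there, against 3.16% of all genes. The 5 members that had risen in HFD all kept positive ratios. These were 0.66 (0.49 to 0.84) for Ccng1, 0.56 (0.23 to 0.92) for Gdf15 and 0.83 (0.72 to 0.96) for Trp53inp1. Phlda3 was at 0.48 (-0.49 to 1.62) and Eda2r at 1.06 (-0.08 to 2.75), with intervals that span both signs. Of the 10, 8 were higher than in SD and 2 lower, with a median of 0.52 (all genes, 0.00).

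In CCl4 over corn oil, 4 members were called higher, Cdkn1a, Gdf15, Phlda3 and Eda2r, where 4.76% of all 17234 genes were. No member was called lower, against 2.41% of all genes, and the median of the 10 was 0.83 (all genes, 0.00). Gdf15, Phlda3 and Eda2r, from 3 different roles, were thus called higher in HFD and in CCl4, in comparisons that share no library. The share of all genes called higher in both was not counted, so whether 3 of the 10 is more than usual cannot be said. Cdkn1a was called in opposite directions in these comparisons. With an assumed coefficient of variation of 0.2, Gdf15, Phlda3 and Eda2r were still called and Cdkn1a was not, and 2.01% of all genes were called.

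When JT003 was added to CCl4, Cdkn1a was the 1 member called, and it was lower, as were 2.51% of all 17393 genes. No member was called higher, against 1.91% of all genes. The median of the 10 was -0.02 (all genes, 0.00). The other 9 ratios ran from -0.90 for Phlda3 to 0.31 for Mdm2. Set directly against corn oil, the CCl4 plus JT003 library had 4 members called higher, against 3.23% of all genes. These were Bax, Gdf15 at 1.83 (1.55 to 2.15), Phlda3 at 1.89 (1.33 to 2.65) and Eda2r at 4.04 (3.09 to 6.99). With an assumed coefficient of variation of 0.2, Cdkn1a was still called in CCl4 plus JT003 over CCl4, as were 0.949% of all genes, and in HFD plus JT003 over SD, as were 1.19%.

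**Figure D2:**
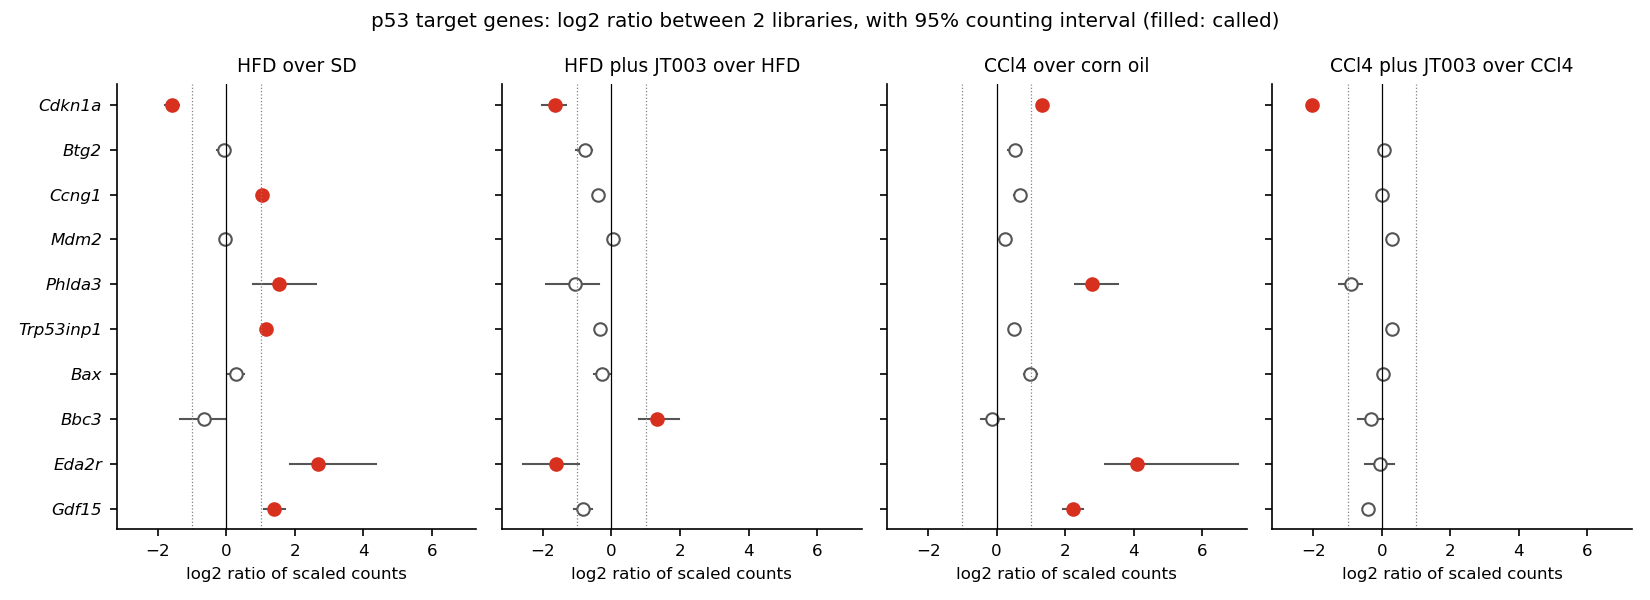
Log2 ratio of scaled counts (horizontal axis) of the 10 genes in 4 comparisons, with 95% counting intervals as lines, filled points for called genes and dotted lines at a log2 ratio of 1 in either direction. Cdkn1a lies left of 0 in 3 comparisons and at 1.32 in CCl4 over corn oil, where Eda2r reaches 4.10, and no other gene is filled in CCl4 plus JT003 over CCl4.

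A second value for CCl4 was available. One of the authors' comparison tables has a CCl4 column that sums to 59937450. This is 2.97 times the CCl4 library, and the column was at or above that library in all but 24 genes, which were lower by at most 0.99 reads. It therefore appears to pool several CCl4 libraries, which is inferred from its values since the column names none. Subtracting the CCl4 library leaves 39780549 counts, called remaining CCl4 here, and the comparisons with it were partly chosen after the data were seen. Of these libraries neither the number nor the handling is known.

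For most members the remaining CCl4 counts lay close to the CCl4 library. In CPM, counts scaled to a common library size, Cdkn1a was at 62.6 in corn oil, 157 in the CCl4 library, 173 in remaining CCl4 and 37.9 in CCl4 plus JT003. Its ratio with JT003 was -2.19 (-2.30 to -2.09) against remaining CCl4, beside -2.04 against the CCl4 library. Eda2r was at 0.179, 4.78, 5.16 and 4.60 CPM in the same order, and Phlda3 at 1.49, 10.9, 9.78 and 5.81. Btg2 differed, with 22.6 in corn oil, 32.6 in the CCl4 library, 90.9 in remaining CCl4 and 34.0 in CCl4 plus JT003. It was the 1 member called between both CCl4 values, at 1.48 (1.36 to 1.60), a call made upward for 1.44% of all genes. Trp53inp1 came next at 0.95 (0.87 to 1.04), with 69.2 CPM in the CCl4 library and 134 in remaining CCl4.

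Against corn oil, remaining CCl4 had 6 members called higher, where 7.29% of all genes were. These were the 4 called with the CCl4 library, together with Btg2 at 2.0 (1.85 to 2.16) and Trp53inp1 at 1.46 (1.35 to 1.57). In CCl4 plus JT003 over remaining CCl4, 2 members were called lower, Cdkn1a and Btg2 at -1.41 (-1.53 to -1.30), against 3.36% of all genes. No member was called higher, against 1.28%. Against the CCl4 library Btg2 had stood at 0.06, so its sign with JT003 depended on which CCl4 counts were used, as did those of Ccng1 (-0.23 against 0.02) and Trp53inp1 (-0.67 against 0.29).

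**Figure D3:**
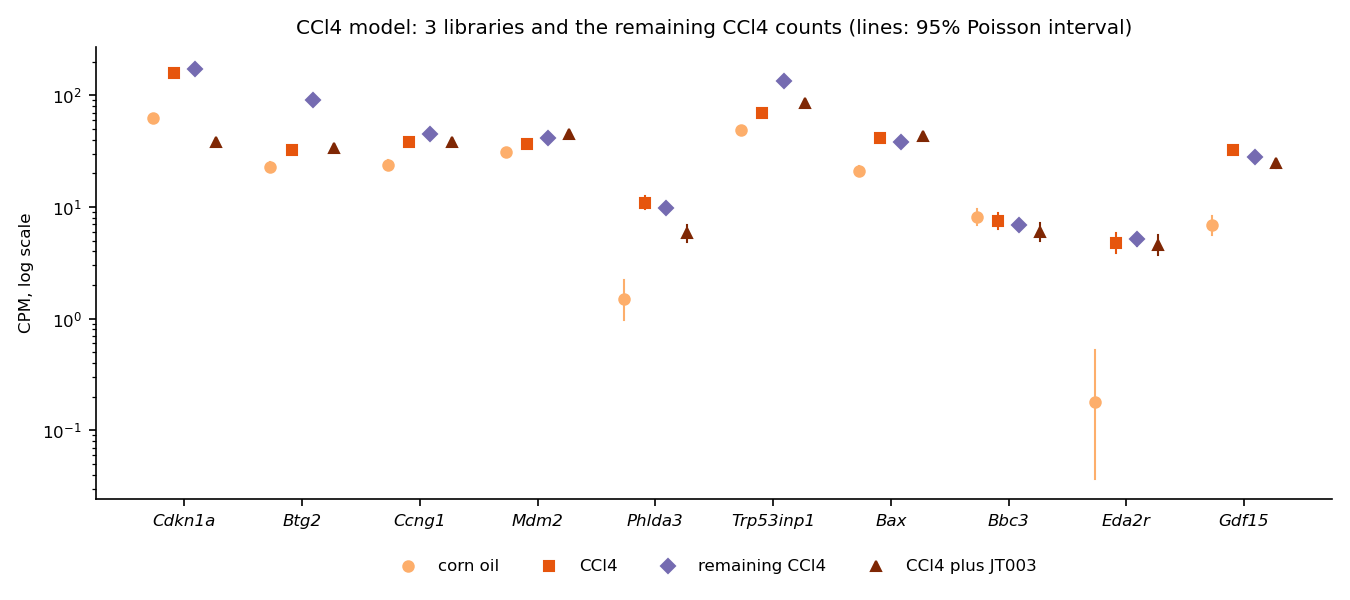
CPM (counts scaled to a common library size) on a log axis for the 10 genes in corn oil, CCl4 and CCl4 plus JT003 and in the remaining CCl4 counts of the authors' pooled column, with 95% Poisson intervals as lines. Btg2 is at 32.6 in the CCl4 library and 90.9 in remaining CCl4, whereas for Cdkn1a both lie above corn oil and CCl4 plus JT003.

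Beside the 10 genes, a list of 33 further p53 targets was examined, all of which had rows in the tables. Between 1 and 3 of them were called in each of the 6 comparisons of single libraries. Of all genes tested, either direction counted, 5.38% were called in HFD over SD, 1.63% with JT003 on HFD, 5.93% in HFD plus JT003 over SD, 7.18% in CCl4 over corn oil, 4.42% with JT003 on CCl4 and 4.95% in CCl4 plus JT003 over corn oil. In HFD over SD, Gadd45a, a growth arrest gene, was higher by 1.60 (0.98 to 2.43) and Ddit4, an inhibitor of mTORC1, by 1.05 (0.57 to 1.62). Epha2, an ephrin receptor, fell by 1.42 (-1.60 to -1.26). These 3 were the ones called, and the median of the list was 0.14, or 0.12 with the 1 gene at 0 in a library set to its bound of 3 counts. With JT003 on HFD the 1 gene called was Ddit4, which fell by 1.39 (-2.01 to -0.89). Gadd45a levels were 0.89 FPKM in SD, 3.13 in HFD and 3.71 when JT003 was added, so this gene was above SD in both. Ddit4 was at 1.35 in SD, 3.13 in HFD and 1.17 when JT003 was added, so the library with JT003 was the lowest. Against SD, HFD plus JT003 had Gadd45a higher at 1.81 (1.22 to 2.65) and Ei24, a p53-induced gene of the endoplasmic reticulum, lower at -1.05.

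In CCl4 over corn oil 3 of the 33 were called, all higher. Zmat3, a regulator of splicing, was at 1.30 (0.99 to 1.63), Plk2, a polo-like kinase, at 1.19 (0.92 to 1.48) and Sulf2, a heparan sulfate sulfatase, at 1.31 (1.12 to 1.52). The median of the list was 0.21. In CCl4 plus JT003 over CCl4 the 1 gene called was Plk3, another polo-like kinase, which was higher at 1.91 (1.81 to 2.01), and the median was 0.05. Its level was 33.68 FPKM in corn oil, 21.98 in CCl4 and 86.47 when JT003 was added, so the library with JT003 was above both others. Against corn oil, CCl4 plus JT003 had Zmat3 higher at 1.19, Plk3 at 1.05 and Aen, an apoptosis-enhancing nuclease, at 1.02. The level of Zmat3 was 0.71 FPKM in corn oil, 2.09 in CCl4 and 2.03 when JT003 was added, so both libraries with CCl4 were above corn oil. In remaining CCl4 over corn oil 7 of the 33 were called, all higher, where 7.29% of all genes were, with a median of 0.19. The 5 with the largest ratios were the adenylate kinase gene Ak1 at 2.59 (1.37 to 5.30) on 3 and 60 reads, Ddit4 at 2.39 (2.09 to 2.73), the autophagy gene Dram1 at 1.48 (0.66 to 2.63), the apoptosome gene Apaf1 at 1.36 (0.85 to 1.96) and Zmat3 at 1.27 (0.98 to 1.58). Plk2 and Sulf2, called with the CCl4 library, were at 0.87 and 0.81 there and were not called. Against remaining CCl4, Ddit4 and Gadd45a were lower in CCl4 plus JT003, at -1.77 (-2.02 to -1.55) and -1.62 (-2.25 to -1.12), and Plk3 was higher at 1.41 (1.34 to 1.47). Ddit4, like Btg2, was higher in remaining CCl4 than in the CCl4 library, at 1.83 (1.60 to 2.08).

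**Figure D4:**
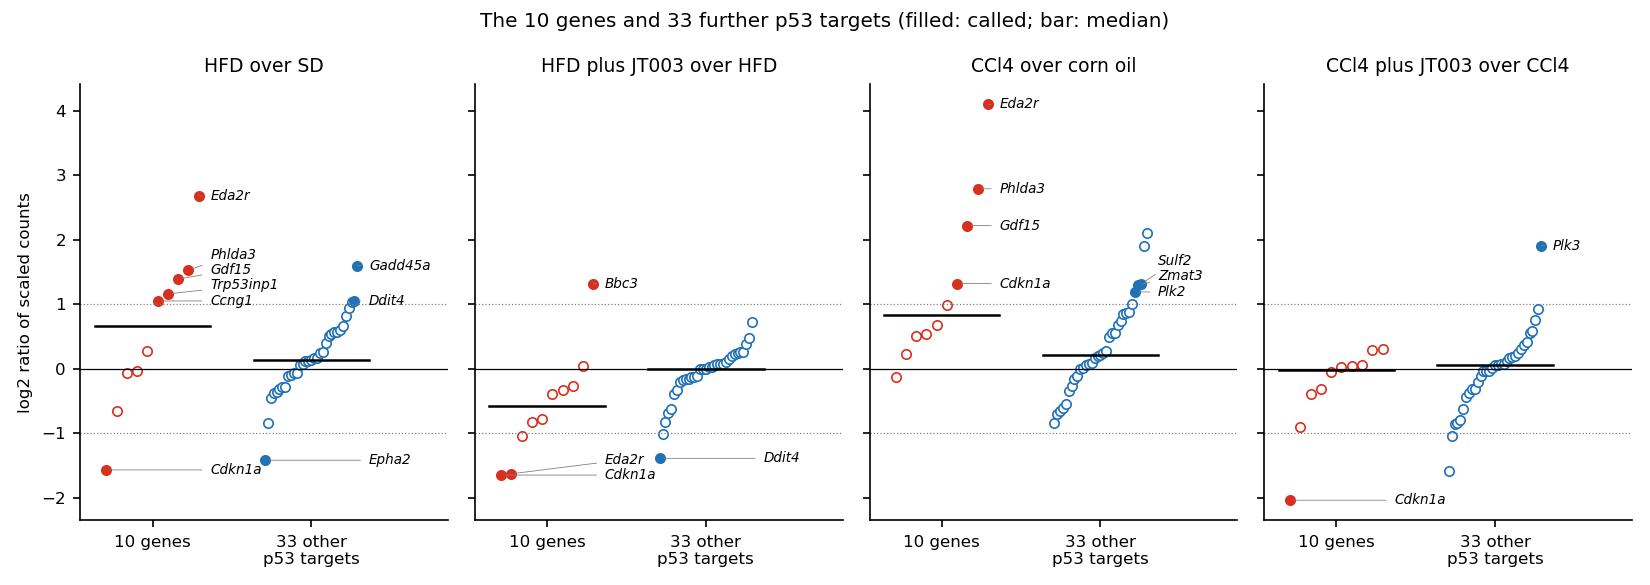
Log2 ratio of scaled counts (vertical axis) of the 10 genes and of 33 further p53 targets in 4 comparisons, each point a gene in rising order, filled and named where called, with a bar at the median of each group. Most of the 33 lie within 1 of 0 in every comparison, and their medians run from 0.00 to 0.21.

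The p53 gene itself was called in none of the comparisons. Trp53 was at 10.86 FPKM in SD, 11.07 in HFD, 8.91 in HFD plus JT003, 11.63 in corn oil, 14.78 with CCl4 and 12.24 in CCl4 plus JT003. Its ratio was -0.10 (-0.30 to 0.11) in HFD over SD and 0.10 (-0.09 to 0.29) in CCl4 over corn oil. With JT003 it was -0.32 (-0.54 to -0.10) on HFD and -0.33 (-0.52 to -0.15) on CCl4. Against remaining CCl4 the JT003 library stood at 0.08 (-0.09 to 0.25). In HFD plus JT003 over SD the ratio was -0.42 (-0.64 to -0.20). Since p53 is governed mainly through the stability of its protein, which was not measured in these libraries, this gives its RNA only. Of a list of 21 genes of p53 and its regulators, 1 was called in CCl4 over corn oil, where 7.18% of all genes were. This was the checkpoint kinase Chek2 at 1.19, which was also higher in HFD plus JT003 over SD at 1.31, where 5.93% were called. No gene of this list was called in the other 4 comparisons of single libraries, where 1.63% to 5.38% of all genes were. In a list of this size such counts cannot be told from these shares.

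Several other programmes moved beside the members, and their part in these results was not tested. Of 16 proliferation genes, 14 were called higher in CCl4 over corn oil with a median of 4.08 (the same with the 1 gene at 0 in corn oil set to its bound), led by the mitotic genes Cdc20 at 5.74 (5.20 to 6.67) and Ccnb1 at 5.46 (4.80 to 6.76). With JT003 on CCl4, 11 were called lower with a median of -2.68, among them Cdc20 at -5.07 and Ccnb1 at -4.86. Their summed level was 22.0 FPKM in SD, 29.1 in HFD, 35.4 in HFD plus JT003, 26.3 in corn oil, 144 with CCl4 and 39.9 in CCl4 plus JT003. Cdkn1a, an inhibitor of the cell cycle, was therefore highest in the library with the most proliferation RNA. Across SD, HFD and HFD plus JT003, in contrast, the proliferation sum rose while Cdkn1a fell, at 21.41, 7.80 and 2.47 FPKM. In the diet model E2f1 was the 1 proliferation gene called in HFD over SD, at 1.55, and Rrm2 the 1 called with JT003, at 1.2. In HFD plus JT003 over SD 6 of the 16 were called higher with a median of 1.22, led by the cyclin gene Ccna2 at 1.90 (1.05 to 3.33).

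Of 14 genes of the integrated stress response, in which Ddit4 is also counted, 5 were called higher and 2 lower in HFD over SD, with a median of 0.08. Ddit3, which encodes the death-associated factor CHOP, rose by 2.01 (1.64 to 2.47) while Asns, asparagine synthetase, fell by 3.61 and the hormone gene Fgf21 fell by 3.30. With JT003 on HFD, 2 were called lower and 1 higher with a median of -0.13, and Ddit3 fell by 1.70 while Fgf21 rose by 1.44. In CCl4 over corn oil 3 were called higher and 1 lower (median 0.19), with the stress factor Atf3 at 3.61, the serine synthesis gene Psat1 at 2.29 and Asns at -2.33. In CCl4 plus JT003 over CCl4 1 was called higher, Chac1 at 1.77, and 4 lower (median -0.25), among them Asns at -1.97 and Psat1 at -1.86.

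Immediate early genes, which answer stress and handling within a short time, were examined as another list. Of 15, 4 were called higher and 1 lower in HFD over SD (median 0.06), with Fosb at 2.20, Fos at 1.66 and Atf3 at 1.54. None was called with JT003 on HFD by the exact binomial test (median -0.21). In CCl4 over corn oil 4 were called higher and 1 lower (median 0.45), with Klf6 at 1.80 and Nr4a1 at -2.79, and with JT003 on CCl4 Egr1 fell by 2.13 and Nr4a1 was higher at 1.24 (median -0.37). In remaining CCl4 over the CCl4 library, where Btg2 was called higher, 1 of the 15 was called, Nr4a1 at 1.16 (0.62 to 1.81), with a median of -0.01.

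Markers of other liver cell types also differed between the libraries. The summed level of 10 macrophage genes was 59.0 FPKM in corn oil and 149 to 242 in the other 5 libraries, all 10 above 0 throughout. Of 10 stellate cell and myofibroblast genes, all above 0, the sum was 20.5 FPKM in SD, 50.5 in HFD, 30.1 in HFD plus JT003, 23.7 in corn oil, 82.1 with CCl4 and 43.6 in CCl4 plus JT003. Bile duct and injured epithelium genes, 7 of 8 above 0 except in CCl4 plus JT003 with all 8, summed to 17.4, 27.8, 18.4, 28.6, 108 and 111 FPKM in that order. Lymphocyte genes, 7 of which had rows, summed to 2.94 to 6.08 FPKM, with Cd3e at 0 in the CCl4 library. In both models the stellate cell sum and Cdkn1a were lower with JT003 than without it, and both were higher in CCl4 than in corn oil. Between SD and HFD they went opposite ways, since the stellate cell sum rose while Cdkn1a fell from 21.41 to 7.80 FPKM. With CCl4 the stellate cell sum was largely Col1a1, Col1a2 and Col3a1, at 20.41, 19.22 and 19.46 FPKM. In each model 9 of its 10 genes were lower with JT003, while Lrat was higher, at 0.09 on HFD and 0.84 on CCl4. The bile duct sum was lower with JT003 in the diet model only. There it was mostly Spp1, at 23.77 FPKM in HFD and 13.07 with JT003. Of the 7 genes of that list with reads there, 4 were higher and 3 lower, and Krt19 was called higher at 2.17. How much of any member's RNA came from these cell types was not tested.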

How the data were processed

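Liver RNA was sequenced on a BGISEQ-500 instrument. The submitters' processing notes name HISAT, Bowtie2, RSEM and mouse build mm9, without versions or roles. For each library the authors deposited expected counts, which estimate the reads of a gene, beside FPKM values, and genes without reads are not listed. FPKM, scaled by transcript length and library depth, was used as deposited. Whether the libraries kept strand is not given in the sources used here, so reads of overlapping genes on opposite strands cannot be told apart.

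After rounding of the expected counts, TMM factors (edgeR 4.0.16 in R 4.3.3; 0.865 to 1.09) were computed within each model, and for the remaining CCl4 counts together with the CCl4 model. All genes with a read in either library entered an exact binomial test, conditional on their total (two-sided, with doubling of the smaller tail; scipy 1.17.1), followed by Benjamini-Hochberg adjustment over these genes. Log2 ratios used a prior count of 2, and their intervals are Clopper-Pearson.

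Tables were handled with Python 3.11.15, pandas 2.3.3 and numpy 2.4.6, and plots with matplotlib 3.10.9. Alternatives were total reads, size factors of DESeq2 1.42.0, TMM over 6 libraries, minimum counts of 10 or 100, no threshold on the ratio, an adjusted p under 0.05, a prior count of 0.5, log2 of FPKM plus 0.1, the exact test of edgeR at coefficients of variation set to 0.2 or 0.4, and the authors' pooled CCl4 counts. In the pooled column 870 rows are not numeric and were read as 0. The 4 deposited comparison tables also hold the authors' own ratios and p-values, which were not used, nor were 7 other expression columns. RefSeq promoter windows were matched to members by symbol, 9 of 10 members having one, and no genome of the mm9 build was used here.

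The 10 members and the gene lists were chosen with earlier results of these data known. Members are given in every library, of the p53 lists at most 5 called genes in each comparison and direction and Trp53, and of the stress, immediate early and proliferation lists at most 3 called genes in each comparison.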

Additional observations from a re-analysis of the deposited data

Results flagged for a closer look

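Cdkn1a moved in opposite directions in the 2 models, and this is why it is listed here. Its log2 ratio was -1.57 in HFD over SD and 1.32 in CCl4 over corn oil, each from 1 library against 1. The difference between the models was not tested, since no spread between mice could be estimated. The directions were the same under every scaling, filter and prior count tried. Neither call of Cdkn1a was kept in the exact test of edgeR, at either of the assumed coefficients of variation between mice.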

How the results depend on the processing

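No paired analysis was possible because each group has 1 library. Between mice the spread is unknown, so the assumed coefficients of variation show how the calls thin out. With 0.2, the number of members called was 1 in HFD over SD (6 by the exact binomial test; 179 of all 16973 genes), 0 in HFD plus JT003 over HFD (3; 19 of 17090) and 1 in CCl4 plus JT003 over corn oil (4; 138 of 17338). With 0.4 it was 0 in all 6 comparisons, but so few genes of any kind were called (0 to 59) that this says little about the members. Without a threshold on the ratio it was 7 in HFD plus JT003 over HFD (14.2% of all genes), 8 in CCl4 over corn oil (26.1%), 5 in CCl4 plus JT003 over CCl4 (24%), 4 in HFD plus JT003 over SD (26.7%) and 9 in CCl4 plus JT003 over corn oil (20.5%). At a minimum of 100 counts, which removes Phlda3, Eda2r and Bbc3 from the genes tested, 1 remained in HFD plus JT003 over HFD (1.94% of all genes). With the pooled or the remaining CCl4 counts, 2 members were called in CCl4 plus JT003 over CCl4 (4.13% and 4.64% of all genes).

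Scaled by total reads, the median ratio of all genes, 0.00 to 0.03 with TMM, was 0.12 in HFD over SD, 0.23 in CCl4 over corn oil, 0.13 in HFD plus JT003 over SD and 0.32 in CCl4 plus JT003 over corn oil. Total reads gave 624 genes higher and 329 lower in HFD over SD (495 and 418 with TMM), 1224 and 271 in CCl4 over corn oil (821 and 416), 722 and 362 in HFD plus JT003 over SD (538 and 470) and 1065 and 177 in CCl4 plus JT003 over corn oil (560 and 299). Under it Bax was called in CCl4 over corn oil, at 1.21. With TMM over 6 libraries Bax lost its call in CCl4 plus JT003 over corn oil, at 0.98. Signs turned for Mdm2 (0.10) and Btg2 (0.05) in HFD over SD, both with total reads and with FPKM, for Bbc3 in CCl4 over corn oil (0.10 and 0.11) and for Eda2r in CCl4 plus JT003 over CCl4 (0.01, total reads only). In the last comparison the pooled and the remaining CCl4 counts gave -0.15 and -0.23 for Ccng1, -1.08 and -1.41 for Btg2, and -0.42 and -0.67 for Trp53inp1. Of the members' ratios under all alternatives, 612 kept their sign and their side of the threshold, 32 lost a call, 31 gained one and 13 changed sign; the cause was not tested. Counts of 3 to 98 reads limit Eda2r most, and corn oil's 3 reads set its interval.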
